A study of Mus musculus with 24 samples.

Results

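The genes described here are 33 genes of the endoplasmic reticulum (ER) protein folding machinery and the unfolded protein response. They were taken by symbol from a list: 3 sensors and transcription factors, 10 chaperones and co-chaperones, 2 lectin chaperones, 7 disulfide isomerases and other foldases, 8 degradation factors and 3 translocon genes. All 33 were found among the 15161 genes of the count table, and all 33 passed the filter on low counts that left 13441 genes. RNA sequencing of liver from male C57BL6/J mice aged 4 months gave 24 libraries in 4 diet groups of 6. The elemental control group ate a diet with elemental amino acids as the protein source and 0.86% methionine. The elemental MR (methionine restriction) group ate the same type of diet with 0.17% methionine. The casein control group ate casein with 0.86% methionine, and the casein MR group ate (oxidized) casein with 0.17% methionine. The label of the casein control diet does not name oxidation, so with casein the effect of less methionine and that of oxidized protein cannot be told apart. How long the diets were fed is not given in the sources used here. Nothing in the labels says that each library came from a separate animal, so p-values measure only the spread between these samples.

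The ER folds secreted and membrane proteins, and hepatocytes secrete a large amount of protein. When unfolded protein builds up, the sensors IRE1 (Ern1), ATF6 and PERK set off the unfolded protein response. IRE1 splices the mRNA of Xbp1 into that of an active transcription factor, ATF6 is cut free from its membrane to act as one, and PERK phosphorylates the translation factor eIF2α. XBP1 and ATF6 then raise the transcription of chaperones, foldases and the factors of ER-associated degradation (ERAD), which send misfolded proteins back to the cytosol.

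The promoters of many of these genes carry the ER stress response element (ERSE), the site read by ATF6 and XBP1 together with NF-Y. It was searched as the letters CCAAT, then 9 bases of any kind, then CCACG. ERSE-II was searched as ATTGG, 1 base of any kind and CCACG, and the core of the unfolded protein response element (UPRE) as TGACGTGG. All were searched on both strands of RefSeq promoter windows (build GRCm38.p6) that reach from 250 bases before to 50 after each gene's start. ERSE and ERSE-II share CCACG, and its complement CGTGG ends the UPRE core. Of the 33 genes, 27 matched a window, and Atf6, Derl1, Hyou1, Sil1, Manf and Sec61a1 did not. ERSE stood in 39 of 32851 windows (0.119%), 9 of them of listed genes. ERSE-II stood in 12 windows (0.0365%), those of Dnajb11 and Herpud1 among them, and the UPRE core in 222 windows (0.676%) and none of the 27. The sites are shown to let the letters shared by these genes be compared, each in the motif's own orientation, with the fixed letters in capitals and the free bases in lower case.
Hspa5 ERSE (chr2:34772025-34772043, + strand): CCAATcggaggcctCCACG
Hsp90b1 ERSE (chr10:86705533-86705551, + strand): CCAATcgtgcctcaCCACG
Hsp90b1 ERSE (chr10:86705638-86705656, - strand): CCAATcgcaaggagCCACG
Dnajc3 ERSE (chr14:118937827-118937845, + strand): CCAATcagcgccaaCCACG
Pdia6 ERSE (chr12:17266491-17266509, + strand): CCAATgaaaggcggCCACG
Creld2 ERSE (chr15:88819520-88819538, - strand): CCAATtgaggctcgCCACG
Calr ERSE (chr8:84847075-84847093, + strand): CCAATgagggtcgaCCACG
Canx ERSE (chr11:50325800-50325818, - strand): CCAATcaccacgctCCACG
Syvn1 ERSE (chr19:6046532-6046550, + strand): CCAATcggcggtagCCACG
Derl3 ERSE (chr10:75893242-75893260, - strand): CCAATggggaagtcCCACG
Dnajb11 ERSE-II (chr16:22857852-22857862, + strand): ATTGGcCCACG
Herpud1 ERSE-II (chr8:94386377-94386387, + strand): ATTGGgCCACG
All but the Dnajb11 site, 7 to 17 bases after the gene's start, lay before it. The Hspa5 element ended 47 bases before the start, and the farther of the Hsp90b1 elements began 212 bases before it. The 250 bases before the start are printed for Hspa5, the main chaperone of the list, and for Creld2, the gene of the list with the largest fall with elemental MR. Capitals mark the exact ERSE match, which in Creld2 is read on the opposite strand. Near matches were not searched and are not marked.
Hspa5 promoter (chr2:34771840-34772089, + strand): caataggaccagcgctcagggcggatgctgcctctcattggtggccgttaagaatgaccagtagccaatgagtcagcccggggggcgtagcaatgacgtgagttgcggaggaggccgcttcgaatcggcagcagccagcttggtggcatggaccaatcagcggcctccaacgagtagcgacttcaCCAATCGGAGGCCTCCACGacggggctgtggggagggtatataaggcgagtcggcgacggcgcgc
Creld2 promoter (chr15:88819396-88819645, + strand): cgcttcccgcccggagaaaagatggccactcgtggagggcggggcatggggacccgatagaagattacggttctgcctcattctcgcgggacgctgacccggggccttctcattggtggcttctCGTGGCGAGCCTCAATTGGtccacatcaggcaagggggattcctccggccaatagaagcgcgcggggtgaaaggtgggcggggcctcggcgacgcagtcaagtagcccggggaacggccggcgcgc
A match to these letters is a description and does not show that a factor binds there.

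**Figure D1:**
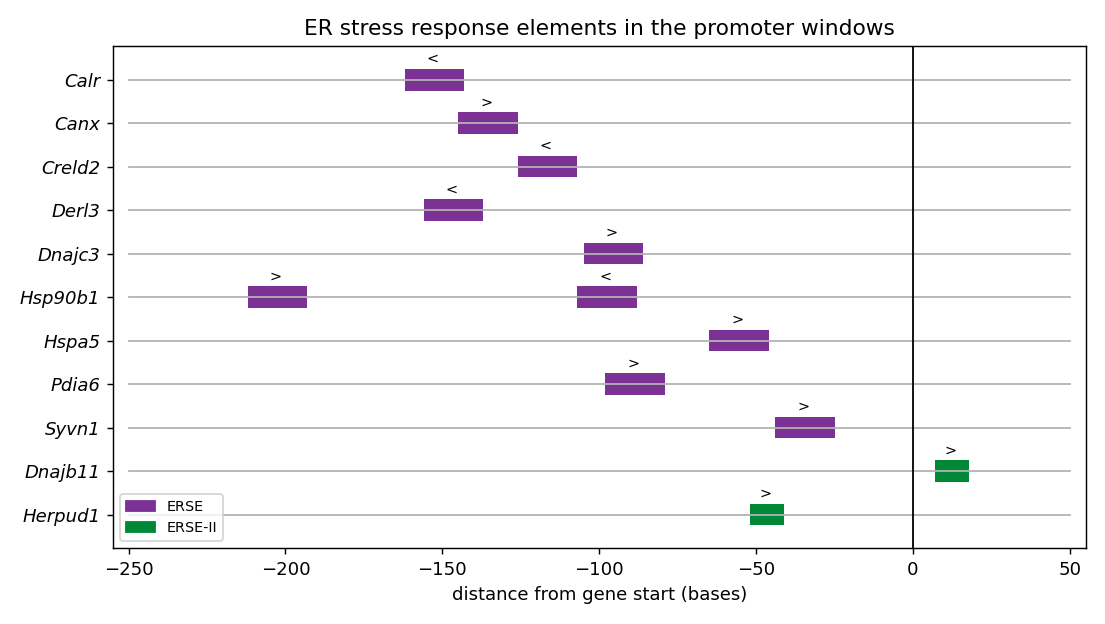
Position of each ERSE (purple) and ERSE-II (green) in the promoter windows of 11 genes, in bases from the gene's start (vertical line at 0); grey lines are the windows, and > or < gives the strand of the motif relative to the gene. The Hsp90b1 window holds 2 elements, and the Dnajb11 element alone lies after the start.

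Most of these genes were lower with methionine restriction for both protein sources. With elemental MR 21 of 33 fell and 0 rose, where 13.4% of all tested genes were called and 6.64% were called lower. With casein MR 24 of 33 fell and 0 rose, where 23.3% of all tested genes were called and 12.7% were called lower. A gene was called at an adjusted p under 0.05 in edgeR's quasi-likelihood test with Benjamini-Hochberg adjustment over all 13441 genes. The median log2 fold change of the 33 genes was -0.37 with elemental MR and -0.39 with casein MR, beside -0.00 and 0.01 over all genes. These comparisons use different libraries but were read from the same fit, so they share its estimate of spread. Of the 33 genes, 18 fell in both comparisons. How many of all tested genes fell in both was not counted, so this overlap has no background to be set beside. Pdia4, Sel1l and Syvn1 were called with elemental MR only, Canx, Derl1, Derl2, Derl3, Os9 and Sil1 with casein MR only, and Dnajb9, Dnajc10, Xbp1, Ern1, Atf6 and Herpud1 with neither. All 6 MR libraries lay below all 6 controls for 18 of the 33 genes with elemental amino acids (3.59% of all genes) and for 13 with casein (6.18% of all genes).

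**Figure D2:**
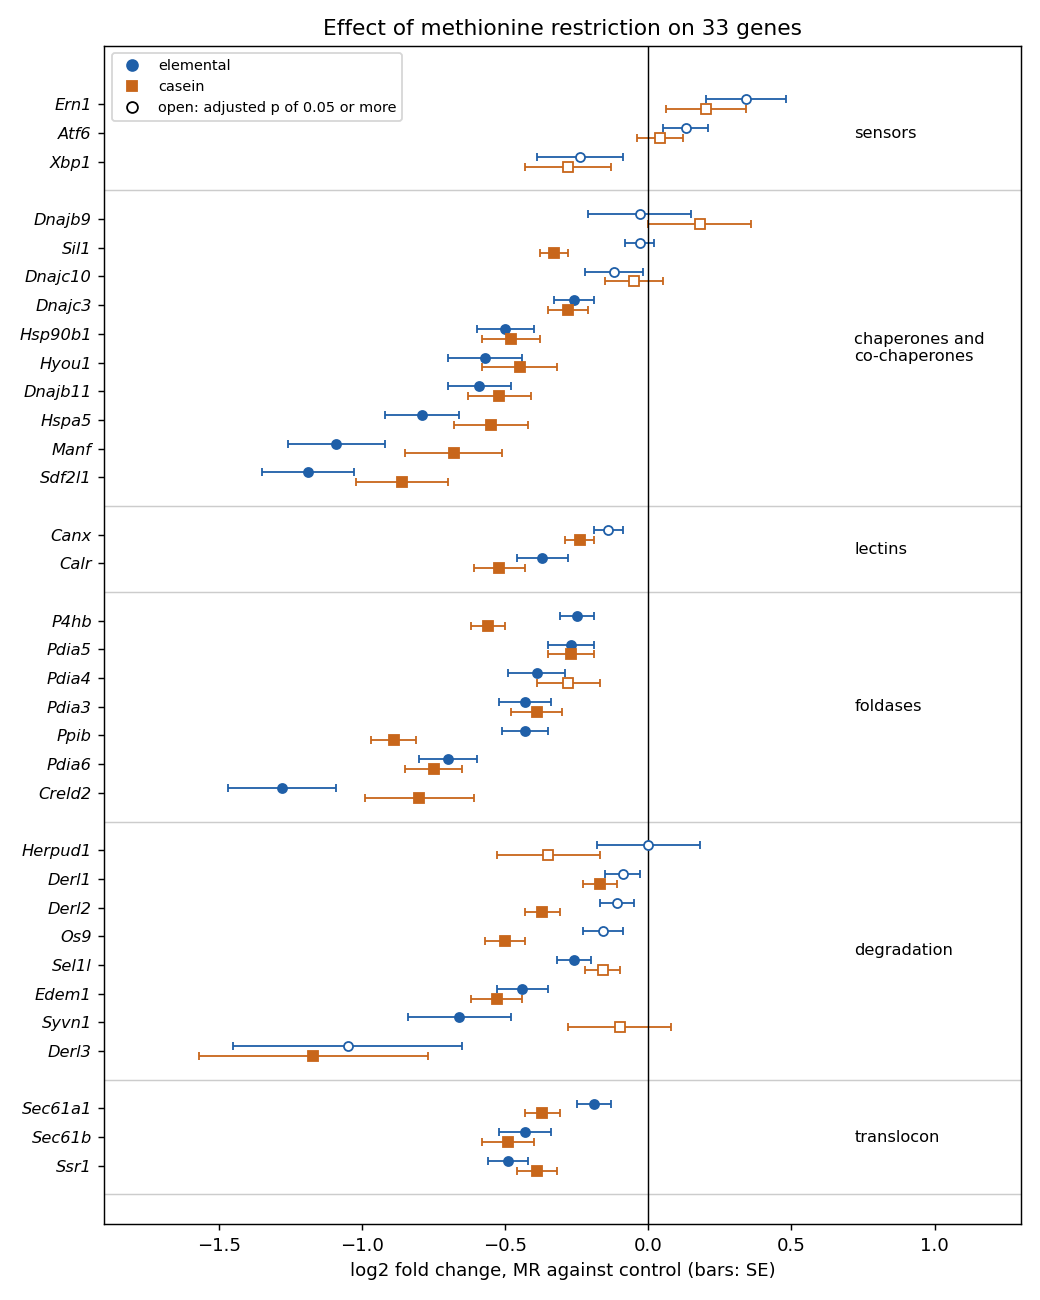
Log2 fold change of MR against control for the 33 genes by role, with bars for the SE; blue circles are elemental MR, orange squares casein MR, and open symbols have an adjusted p of 0.05 or more. Creld2, Sdf2l1, Manf and Derl3 lie farthest to the left, and the 3 sensors are open in both comparisons.

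The libraries held between 13458941 and 20762532 counted reads. The 33 genes together took 0.68% ± 0.0421 of the reads with the elemental control diet, 0.563% ± 0.0385 with elemental MR, 0.62% ± 0.0741 with the casein control diet and 0.539% ± 0.0482 with casein MR (mean ± SD, n = 6). The casein shares overlapped, at 0.52% to 0.704% in controls and 0.508% to 0.629% with MR. These are shares of unscaled reads, while the fold changes rest on libraries scaled by TMM, so their sizes cannot be set side by side. How much of the falls comes from the scaling was not tested. Of 8 hepatocyte markers, 2 fell with elemental MR and 7 with casein MR. Their summed level had a median of 100931 RPM (reads per 1000000 reads of the library) with the elemental control diet, 89413 with elemental MR, 95314 with the casein control diet and 68803 with casein MR. In bulk tissue fewer cells of a type and less RNA per cell cannot be told apart. Of 11 B and plasma cell markers, a type rich in ER chaperones, 9 were in the table, none of these at 0 in a whole group, and 0 of 9 were called in either MR comparison by edgeR. Their sums ran from 13.8 to 33.4 RPM with the elemental control diet, 17.1 to 24.6 with elemental MR, 18.3 to 39.5 with the casein control diet and 21.1 to 47 with casein MR. Elemental control library E_C_3430 held 1820 RPM of 8 pancreatic acinar markers, where no other library held more than 65.6, and casein MR library C_MR_3438 held 2014 RPM of 8 skeletal muscle markers, where no other held more than 67.5. Cela1, the 1 acinar marker that passed the filter, fell by 2.14 ± 0.48 on the log2 scale (± SE, adjusted p = 0.00309) with elemental MR. It fell by 1.59 ± 0.48 (adjusted p = 0.0159) with casein MR. Without these 2 libraries it fell by 0.81 ± 0.21 (adjusted p = 0.0122) with elemental MR and by 1.63 ± 0.22 (adjusted p = 3.55e-06) with casein MR. The other 7 acinar markers summed to 20.8 RPM or less in every library but E_C_3430, and to 0 in at least 1 library of each group. Of 5 cholangiocyte markers 1 fell with elemental MR and 3 with casein MR, and their median sums were 47.8, 24.9, 53 and 32.6 RPM in the order of groups given above. Of 5 erythroid markers 2 and 1 fell and 0 rose. Of 8 stellate and fibroblast markers 2 fell with elemental MR, and 0 fell and 1 (Des) rose with casein MR. Of 8 endothelial markers Clec4g rose with elemental MR and Stab2 fell with casein MR. All 8 skeletal muscle markers were called higher with casein MR, the group that holds C_MR_3438. The part of these and of the hepatocyte markers in the chaperone results was not tested. Without E_C_3430 and C_MR_3438, 20 of the 33 genes were lower with elemental MR and 23 with casein MR.

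None of the 3 sensors and transcription factors was called in either MR comparison by edgeR; 1 of them, Ern1, had an unadjusted p under 0.05 with elemental MR. In this and the following paragraphs, levels are the lowest, median and highest of 6 libraries in CPM (counts per 1000000 counts of the scaled library), and changes are log2 fold changes ± SE. Ern1, the kinase and RNase IRE1α, stood at 27.6, 32.7 and 41.5 CPM with the elemental control diet, 34.6, 44.1 and 47.2 with elemental MR, 21, 32.5 and 46.4 with the casein control diet, and 29.3, 36.4 and 46.1 with casein MR. Medians of Ern1 were higher with MR in both pairs, and the ranges overlapped. Its change was 0.34 ± 0.14 (adjusted p = 0.109) with elemental MR and 0.20 ± 0.14 (adjusted p = 0.338) with casein MR. A fit of the 2 elemental groups alone gave an adjusted p of 0.033 for Ern1, the only setting in which any of the 33 genes was called higher. Atf6, the membrane-bound transcription factor, stood at 35.9, 38.5 and 49.8 CPM with the elemental control diet, 39.3, 44.5 and 48.8 with elemental MR, 33, 40.5 and 43.3 with the casein control diet, and 36.8, 39.8 and 43.9 with casein MR. All 4 ranges of Atf6 overlapped, and its change was 0.13 ± 0.08 (adjusted p = 0.317) and 0.04 ± 0.08 (adjusted p = 0.808). Xbp1, whose mRNA is spliced by IRE1, stood at 106, 166 and 210 CPM with the elemental control diet, 118, 138 and 177 with elemental MR, 106, 133 and 198 with the casein control diet, and 95, 120 and 155 with casein MR. Xbp1 spread widely within the control groups, and its change was -0.24 ± 0.15 (adjusted p = 0.341) with elemental MR and -0.28 ± 0.15 (adjusted p = 0.217) with casein MR. Counts per gene do not separate spliced from unspliced Xbp1.

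Of the chaperones and co-chaperones, 7 of 10 fell with elemental MR and 8 of 10 with casein MR, among them the HSP70 and the HSP90 of the ER lumen. Hspa5 (BiP), the HSP70 of the ER lumen, stood at 1092, 1290 and 1585 CPM with the elemental control diet, 644, 750 and 944 with elemental MR, 793, 1033 and 1448 with the casein control diet, and 622, 693 and 933 with casein MR. Every elemental MR library lay below every elemental control, while the casein groups overlapped. Hspa5 fell by 0.79 ± 0.13 (adjusted p = 0.000153) with elemental MR and by 0.55 ± 0.13 (adjusted p = 0.00278) with casein MR. Hsp90b1 (GRP94), the HSP90 of the ER, stood at 689, 754 and 808 CPM with the elemental control diet, 433, 546 and 613 with elemental MR, 544, 678 and 822 with the casein control diet, and 382, 501 and 562 with casein MR. Its elemental groups were apart and its casein groups overlapped at their edges. Hsp90b1 fell by 0.50 ± 0.10 (adjusted p = 0.0014) with elemental MR and by 0.48 ± 0.10 (adjusted p = 0.000875) with casein MR. Dnajb11 (ERdj3), a co-chaperone that binds unfolded proteins and hands them to BiP, stood at 67.8, 77.3 and 84.3 CPM with the elemental control diet, 39.5, 50.5 and 58.6 with elemental MR, 56.2, 69.3 and 92.4 with the casein control diet, and 39.3, 51.5 and 55 with casein MR. Both pairs of Dnajb11 ranges were apart. Dnajb11 fell by 0.59 ± 0.11 (adjusted p = 0.000386) with elemental MR and by 0.52 ± 0.11 (adjusted p = 0.000564) with casein MR.

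Sdf2l1, a partner of ERdj3, stood at 38.1, 52.9 and 55.9 CPM with the elemental control diet, 15.2, 21.6 and 27.5 with elemental MR, 24.1, 36 and 47.4 with the casein control diet, and 15.2, 18.9 and 23 with casein MR. Its MR libraries lay below the controls in both pairs, narrowly with casein. Sdf2l1 fell by 1.19 ± 0.16 (adjusted p = 6.66e-06) with elemental MR and by 0.86 ± 0.16 (adjusted p = 0.000166) with casein MR. Manf, an ER protein that binds BiP and can be secreted, stood at 143, 160 and 213 CPM with the elemental control diet, 59.1, 75.4 and 115 with elemental MR, 83.6, 112 and 164 with the casein control diet, and 59.8, 74 and 87.9 with casein MR. The elemental ranges of Manf were apart and the casein ranges overlapped at their edges. Manf fell by 1.09 ± 0.17 (adjusted p = 5.45e-05) with elemental MR and by 0.68 ± 0.17 (adjusted p = 0.00317) with casein MR. Hyou1 (GRP170), a nucleotide exchange factor of BiP, stood at 24.1, 27.7 and 32.4 CPM with the elemental control diet, 13.3, 19.3 and 21 with elemental MR, 16.5, 24.6 and 32.2 with the casein control diet, and 15, 17.8 and 20.7 with casein MR. Ranges of Hyou1 were apart with elemental amino acids and overlapped with casein. Hyou1 fell by 0.57 ± 0.13 (adjusted p = 0.00475) with elemental MR and by 0.45 ± 0.13 (adjusted p = 0.0145) with casein MR. The casein call of Hyou1 was lost without casein control library C_C_3436 (adjusted p = 0.0585) and with limma-voom (adjusted p = 0.0558). Dnajc3 (P58IPK), a co-chaperone of BiP, stood at 318, 366 and 391 CPM with the elemental control diet, 266, 305 and 338 with elemental MR, 288, 340 and 370 with the casein control diet, and 246, 269 and 307 with casein MR, with overlap in both pairs. Dnajc3 fell by 0.26 ± 0.07 (adjusted p = 0.0132) with elemental MR and by 0.28 ± 0.07 (adjusted p = 0.00341) with casein MR. The elemental call of Dnajc3 was lost without the 4 libraries with pancreas, muscle or most erythroid genes (adjusted p = 0.0661).

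Sil1, another nucleotide exchange factor of BiP, stood at 60.2, 62.5 and 68.2 CPM with the elemental control diet, 55, 62.4 and 66.9 with elemental MR, 61.6, 65.9 and 69.3 with the casein control diet, and 49, 52.4 and 55.3 with casein MR. The casein MR libraries of Sil1 lay below all casein controls, while the elemental groups overlapped. Sil1 fell by 0.33 ± 0.05 (adjusted p = 2.05e-05) with casein MR, and its change with elemental MR was -0.03 ± 0.05 (adjusted p = 0.743). Dnajb9 (ERdj4), a textbook target of XBP1, was at -0.03 ± 0.18 (adjusted p = 0.94) with elemental MR and 0.18 ± 0.18 (adjusted p = 0.549) with casein MR. Dnajc10 (ERdj5), a reductase that opens disulfides of proteins bound for degradation, was at -0.12 ± 0.10 (adjusted p = 0.461) and -0.05 ± 0.10 (adjusted p = 0.797). Dnajb9 ranged from 12.8 to 31.3 CPM over the 24 libraries and Dnajc10 from 16 to 24.2.

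**Figure D3:**
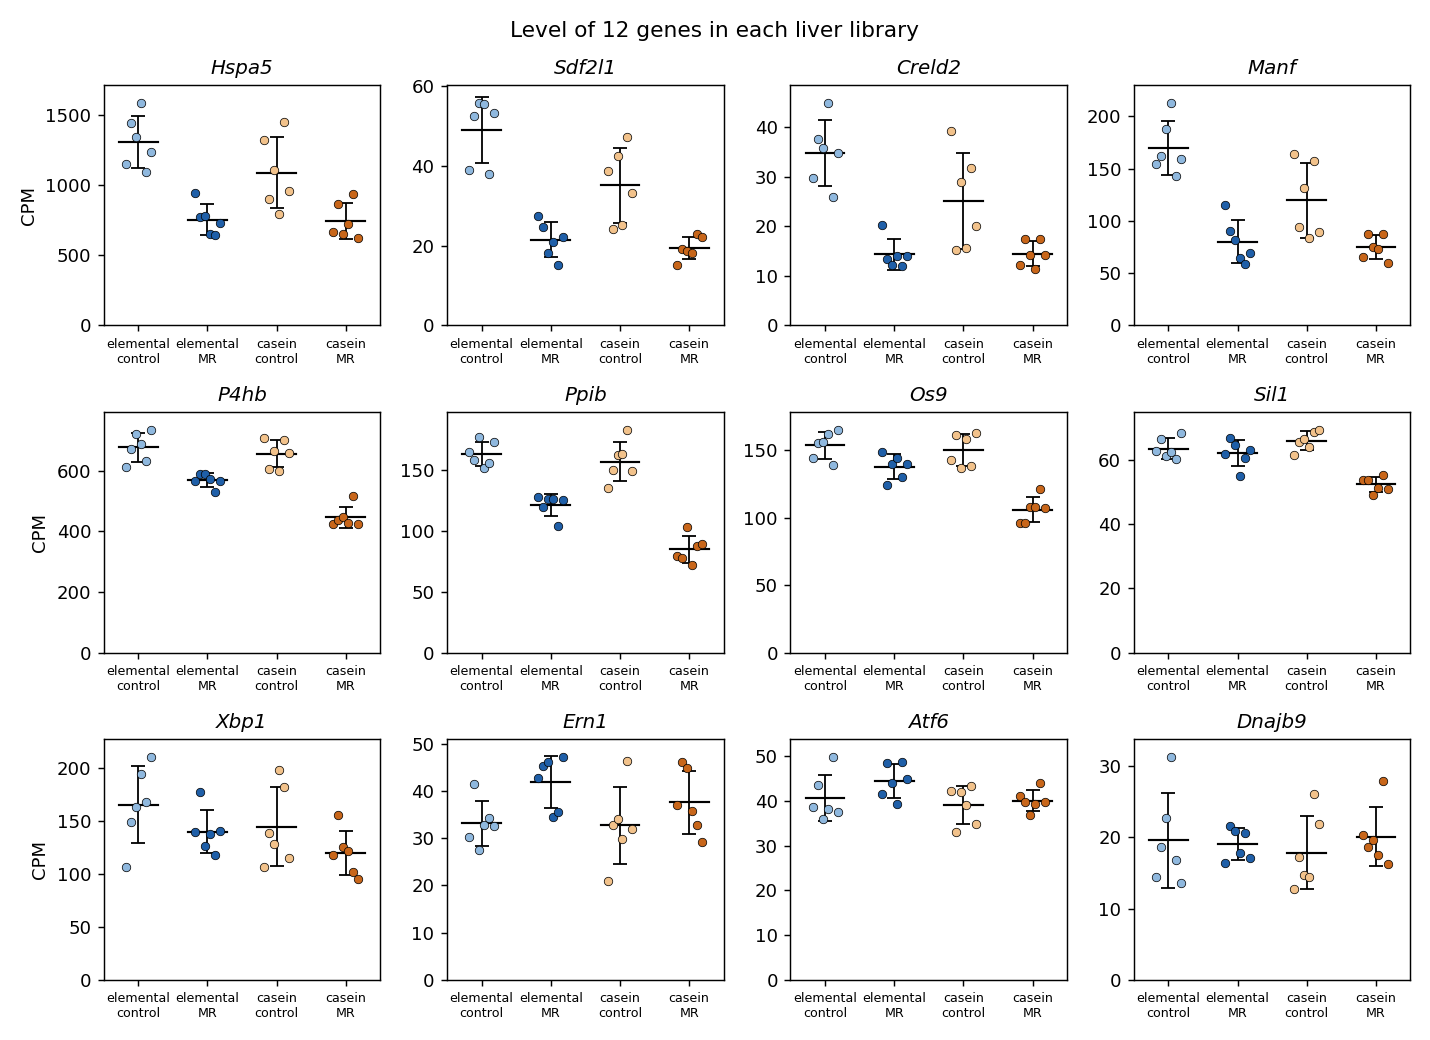
Level in CPM of 12 genes in each of 24 libraries (points) by diet group, with the mean (bar) and SD (whiskers) of 6 libraries. Hspa5, Sdf2l1, Creld2 and Manf drop with both MR diets, P4hb, Ppib, Os9 and Sil1 drop farthest with casein MR, and Xbp1, Ern1, Atf6 and Dnajb9 overlap between groups.

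The lectin chaperones bind the sugars of new glycoproteins; 1 of 2 fell with elemental MR and 2 of 2 with casein MR. Calr (calreticulin), the soluble lectin, stood at 735, 858 and 977 CPM with the elemental control diet, 509, 695 and 727 with elemental MR, 671, 766 and 816 with the casein control diet, and 453, 536 and 603 with casein MR. Its MR libraries lay below the controls in both pairs. Calr fell by 0.37 ± 0.09 (adjusted p = 0.00508) with elemental MR and by 0.52 ± 0.09 (adjusted p = 5.64e-05) with casein MR. Canx (calnexin), the membrane-bound lectin, fell by 0.24 ± 0.05 (adjusted p = 0.00172) with casein MR, where its groups were apart at 204 to 231 CPM against 232 to 264. With elemental MR its change was -0.14 ± 0.05 (adjusted p = 0.0828), and it was called there without elemental control library E_C_3401 (adjusted p = 0.0494).

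Of the disulfide isomerases and other foldases, 7 of 7 fell with elemental MR and 6 of 7 with casein MR. The reductase Dnajc10, counted above with the co-chaperones, was called in neither comparison. Creld2, a cysteine-rich ER protein induced by ER stress, stood at 25.9, 35.3 and 44.9 CPM with the elemental control diet, 12, 13.7 and 20.3 with elemental MR, 15.2, 24.5 and 39.2 with the casein control diet, and 11.4, 14.3 and 17.4 with casein MR. The elemental groups of Creld2 were apart, and in the casein control group the lowest libraries reached into the MR range. Creld2 fell by 1.28 ± 0.19 (adjusted p = 3.96e-05) with elemental MR and by 0.80 ± 0.19 (adjusted p = 0.00259) with casein MR, a fold of 2.43 and 1.74. Pdia6 (P5), a disulfide isomerase that works with BiP, stood at 344, 384 and 434 CPM with the elemental control diet, 181, 246 and 267 with elemental MR, 290, 353 and 469 with the casein control diet, and 178, 219 and 233 with casein MR. Pdia6 ranges were apart in both pairs. Pdia6 fell by 0.70 ± 0.10 (adjusted p = 1.82e-05) with elemental MR and by 0.75 ± 0.10 (adjusted p = 1.87e-06) with casein MR. Pdia3 (ERp57), the isomerase that works with the lectin chaperones, stood at 210, 248 and 273 CPM with the elemental control diet, 160, 180 and 203 with elemental MR, 170, 219 and 256 with the casein control diet, and 143, 160 and 187 with casein MR. Its elemental groups were apart and its casein groups overlapped. Pdia3 fell by 0.43 ± 0.09 (adjusted p = 0.00198) with elemental MR and by 0.39 ± 0.09 (adjusted p = 0.00255) with casein MR.

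P4hb is protein disulfide isomerase itself and also a subunit of the enzyme that hydroxylates prolines of collagen. It stood at 611, 680 and 735 CPM with the elemental control diet, 530, 571 and 591 with elemental MR, 601, 662 and 707 with the casein control diet, and 426, 433 and 516 with casein MR. Both MR groups of P4hb lay below their controls, and casein MR lay below elemental MR. P4hb fell by 0.25 ± 0.06 (adjusted p = 0.00506) with elemental MR and by 0.56 ± 0.06 (adjusted p = 6.88e-08) with casein MR. Its elemental call was lost without the same 4 libraries (adjusted p = 0.0543). Ppib (cyclophilin B), a prolyl isomerase, stood at 152, 161 and 177 CPM with the elemental control diet, 104, 126 and 128 with elemental MR, 135, 156 and 183 with the casein control diet, and 71.8, 83.7 and 103 with casein MR. Its order was the same, with no overlap between MR and control or between the MR groups. Ppib fell by 0.43 ± 0.08 (adjusted p = 0.00039) with elemental MR and by 0.89 ± 0.08 (adjusted p = 2.33e-09) with casein MR. Pdia5, a further disulfide isomerase, stood at 45.6, 50.4 and 57.2 CPM with the elemental control diet, 37.1, 42.7 and 45.1 with elemental MR, 39.7, 43.4 and 52.4 with the casein control diet, and 29.1, 38.9 and 40.5 with casein MR. Its elemental ranges were apart by a narrow gap and its casein ranges overlapped. Pdia5 fell by 0.27 ± 0.08 (adjusted p = 0.0233) with elemental MR and by 0.27 ± 0.08 (adjusted p = 0.0125) with casein MR. The elemental call of Pdia5 was lost without control library E_C_3418 (adjusted p = 0.0646) or MR library E_MR_3420 (adjusted p = 0.0594), and its casein call without control library C_C_3413 (adjusted p = 0.0527). Pdia4 (ERp72) fell by 0.39 ± 0.10 (adjusted p = 0.0113) with elemental MR, and with casein MR its change was -0.28 ± 0.11 (adjusted p = 0.0524). Pdia4 was called with casein MR without casein control library C_C_3429 (adjusted p = 0.00947), without MR library C_MR_3425 (adjusted p = 0.0444) or without MR library C_MR_3433 (adjusted p = 0.0124). With all libraries it was called there by DESeq2 (adjusted p = 0.0445) and with upper quartile scaling (adjusted p = 0.0481).

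Of the degradation factors, 3 of 8 fell with elemental MR and 5 of 8 with casein MR, and all 8 estimates lay below 0 in both comparisons. Edem1, which marks glycoproteins for degradation, stood at 76.3, 80.6 and 95.4 CPM with the elemental control diet, 50.7, 61.9 and 75.8 with elemental MR, 66.7, 78.9 and 91.2 with the casein control diet, and 50.3, 53.2 and 61.6 with casein MR. MR and control ranges of Edem1 were apart in both pairs. Edem1 fell by 0.44 ± 0.09 (adjusted p = 0.00116) with elemental MR and by 0.53 ± 0.09 (adjusted p = 5.6e-05) with casein MR. Os9, a lectin that brings such glycoproteins to the ligase complex, stood at 139, 156 and 165 CPM with the elemental control diet, 124, 140 and 149 with elemental MR, 137, 151 and 163 with the casein control diet, and 95.9, 107 and 121 with casein MR. All casein MR libraries of Os9 lay below every other group. Os9 fell by 0.50 ± 0.07 (adjusted p = 1.46e-06) with casein MR, and its change with elemental MR was -0.16 ± 0.07 (adjusted p = 0.121). Sel1l and Syvn1 (HRD1) form the core of that ligase complex. Sel1l fell by 0.26 ± 0.06 (adjusted p = 0.0055) with elemental MR, at 168 to 181 CPM against 185 to 233, and its change with casein MR was -0.16 ± 0.06 (adjusted p = 0.0708). It was called with casein MR without casein control library C_C_3429 (adjusted p = 0.0241) or MR library C_MR_3433 (adjusted p = 0.0472). Syvn1 fell by 0.66 ± 0.18 (adjusted p = 0.0122) with elemental MR, a call lost without control library E_C_3427 (adjusted p = 0.0538), whose level of 99.5 CPM was the highest of the 24. With casein MR the change of Syvn1 was -0.10 ± 0.18 (adjusted p = 0.738).

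The derlins are membrane proteins of the channel that returns proteins to the cytosol. Derl2 fell by 0.37 ± 0.06 (adjusted p = 7.52e-05) with casein MR, at 72.3 to 84.4 CPM against 89.9 to 121, and its change with elemental MR was -0.11 ± 0.06 (adjusted p = 0.285). Derl1 fell by 0.17 ± 0.06 (adjusted p = 0.0315) with casein MR and was at -0.09 ± 0.06 (adjusted p = 0.307) with elemental MR. Its call was lost without any 1 of casein control libraries C_C_3407, C_C_3413, C_C_3421 and C_C_3436 or of casein MR libraries C_MR_3425, C_MR_3431 and C_MR_3438 (adjusted p from 0.0524 to 0.0983). Derl3, the derlin of secretory cells, was read at 0.724 to 5.35 CPM and fell by 1.17 ± 0.40 (adjusted p = 0.0326) with casein MR, beside -1.05 ± 0.40 (adjusted p = 0.0845) with elemental MR. The casein call of Derl3 was lost without any 1 of control libraries C_C_3407, C_C_3421, C_C_3429 and C_C_3436 or MR libraries C_MR_3425, C_MR_3431 and C_MR_3433 (adjusted p from 0.0537 to 0.107). It was also lost with limma-voom (adjusted p = 0.177). With elemental MR Derl3 was called without MR library E_MR_3424 (adjusted p = 0.0452) and by DESeq2 with all libraries (adjusted p = 0.0476). Herpud1 (HERP), a ligase partner and stress target, was at -0.00 ± 0.18 (adjusted p = 0.994) with elemental MR and -0.35 ± 0.18 (adjusted p = 0.173) with casein MR. One casein MR library, C_MR_3433, stood at 414 CPM of Herpud1 and the other 5 between 162 and 228, and without it Herpud1 fell by 0.59 with casein MR (adjusted p = 0.00327).

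All 3 translocon genes fell in both comparisons. Ssr1 (TRAPα), a subunit of the translocon-associated protein complex, stood at 86.6, 93.7 and 102 CPM with the elemental control diet, 59.9, 66 and 77.6 with elemental MR, 71, 90.4 and 92.4 with the casein control diet, and 56.3, 68.9 and 72.1 with casein MR. Ssr1 groups were apart with elemental amino acids, and with casein only control library C_C_3429, at 71 CPM, reached the MR range. Ssr1 fell by 0.49 ± 0.07 (adjusted p = 3.16e-05) with elemental MR and by 0.39 ± 0.07 (adjusted p = 0.000193) with casein MR. Sec61b, the β subunit of the channel through which new proteins enter the ER, stood at 76.7, 86.5 and 97.4 CPM with the elemental control diet, 54.3, 63.4 and 75.1 with elemental MR, 75.7, 80.8 and 113 with the casein control diet, and 54.1, 60.7 and 65.2 with casein MR. Its ranges were apart in both pairs. Sec61b fell by 0.43 ± 0.09 (adjusted p = 0.00124) with elemental MR and by 0.49 ± 0.09 (adjusted p = 0.00012) with casein MR. Sec61a1, the subunit that forms the pore, stood at 284, 307 and 324 CPM with the elemental control diet, 250, 261 and 286 with elemental MR, 267, 294 and 344 with the casein control diet, and 210, 227 and 257 with casein MR. Its elemental ranges overlapped at their edges and its casein ranges were apart. Sec61a1 fell by 0.19 ± 0.06 (adjusted p = 0.0414) with elemental MR and by 0.37 ± 0.06 (adjusted p = 4.07e-05) with casein MR. The elemental call of Sec61a1 was lost without any 1 of control libraries E_C_3417, E_C_3418, E_C_3427 and E_C_3430 or MR libraries E_MR_3403, E_MR_3420, E_MR_3423 and E_MR_3424 (adjusted p from 0.0652 to 0.0915).

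The effect of MR differed between the protein sources for 4 of the 33 genes in the test of the difference itself (casein minus elemental), where 2.34% of all genes were called and 1.56% were called lower. All 4 fell farther with casein MR: the difference was -0.46 ± 0.11 (adjusted p = 0.0193) for Ppib, -0.35 ± 0.09 (adjusted p = 0.0423) for Os9, -0.31 ± 0.08 (adjusted p = 0.0494) for P4hb and -0.30 ± 0.07 (adjusted p = 0.0241) for Sil1. Ppib was called under all 33 alternative settings. The call of P4hb was lost in 25 of 33 settings (highest adjusted p 0.0925), that of Os9 in 19 (0.103) and that of Sil1 in 3 (0.0728). Sil1 lost it without elemental control library E_C_3418 (adjusted p = 0.0542) and without casein control library C_C_3437 (adjusted p = 0.0539). For the 4 called genes with the largest falls with elemental MR the estimate lay above 0 without passing the test. It was 0.48 ± 0.27 (adjusted p = 0.503) for Creld2, 0.41 ± 0.23 (adjusted p = 0.515) for Manf, 0.34 ± 0.22 (adjusted p = 0.603) for Sdf2l1 and 0.24 ± 0.19 (adjusted p = 0.676) for Hspa5. These 4 were chosen by the elemental change that the difference subtracts, so the choice itself favours estimates above 0. Syvn1, called with elemental MR and not with casein MR, had a difference of 0.55 ± 0.25 (adjusted p = 0.34). Choosing Syvn1 by those calls favours a value above 0 as well. For the other genes called in 1 MR comparison only, a difference between the protein sources was likewise not called, save for Os9 and Sil1.

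On the MR diets alone, casein against elemental, 7 of 33 genes were lower with casein and 0 higher, where 6.5% of all genes were called and 3.78% were called lower. This contrast shares its libraries with those above. The log2 difference was -0.52 ± 0.08 (adjusted p = 7.85e-05) for Ppib, -0.38 ± 0.07 (adjusted p = 0.000345) for Os9, -0.35 ± 0.06 (adjusted p = 0.000313) for P4hb and -0.25 ± 0.05 (adjusted p = 0.00315) for Sil1. It was -0.32 ± 0.09 (adjusted p = 0.0223) for Calr, -0.26 ± 0.06 (adjusted p = 0.0128) for Derl2 and -0.20 ± 0.06 (adjusted p = 0.0428) for Sec61a1. P4hb, Ppib, Derl2 and Os9 were lower in every casein MR library than in every elemental MR library, which held for 2.66% of all genes. The call of Calr was lost without any 1 of elemental MR libraries E_MR_3403 and E_MR_3424 or casein MR libraries C_MR_3412, C_MR_3419 and C_MR_3431 (adjusted p from 0.0529 to 0.0607), and that of Sec61a1 without any 1 of elemental MR libraries E_MR_3403, E_MR_3405, E_MR_3416, E_MR_3420 and E_MR_3424 or casein MR libraries C_MR_3412, C_MR_3419, C_MR_3425 and C_MR_3438 (adjusted p from 0.0604 to 0.112). Derl2 (adjusted p = 0.132) and Sec61a1 (adjusted p = 0.12) were not called without the libraries with pancreas, muscle or most erythroid genes. Canx was at -0.15 ± 0.05 (adjusted p = 0.102) and was called without elemental MR library E_MR_3423 (adjusted p = 0.0356). Hspa5, Creld2 and Manf, at -0.02, 0.01 and -0.10, were not called.

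On the control diets, casein against elemental, 0 of 33 genes were called by edgeR, by DESeq2 or by limma-voom, where 0.104% of all genes (14, of which 4 higher and 10 lower) were called. With upper quartile scaling these 14 became 12, of which 2 were higher and 10 lower. An unadjusted p under 0.05 in edgeR's test was reached by 8 of the 33, beside 1578 of all 13441 tested genes. Below 0 lay 28 of 33 estimates, beside 6632 of the 13441, with a median of -0.10 beside 0.00 over all genes. Manf was at -0.50 ± 0.17 (adjusted p = 0.225), Sdf2l1 at -0.48 ± 0.15 (adjusted p = 0.218), Creld2 at -0.46 ± 0.19 (adjusted p = 0.325) and Hspa5 at -0.26 ± 0.13 (adjusted p = 0.446). The casein controls of these genes spread widely: Creld2 ran from 15.2 to 39.2 CPM in them and from 25.9 to 44.9 in the elemental controls.

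The genes differed in how much they varied between libraries of 1 group. The pooled SD of log2 CPM within groups was 0.08 for Sil1 and for Canx, at percentiles 1.63 and 3.07 of all tested genes, and 0.09 for Derl1 and for P4hb. It was 0.34 for Herpud1 and Dnajb9, 0.36 for Creld2 (percentile 73 of tested genes) and 0.78 for the little expressed Derl3. The steady Sil1 passed the test with a change of -0.33 with casein MR, and the variable Derl3 did not with one of -1.05 with elemental MR. Single libraries were high or low in many of the genes at once. Elemental MR library E_MR_3423 was the lowest of its group for 21 of the 33 genes, and casein control library C_C_3429 for 16, while casein MR library C_MR_3433 was the highest of its group for 23. Library E_MR_3423 and casein MR library C_MR_3431, the lowest of its group for 13 genes, held the most erythroid reads of their groups, 6626 and 7331 RPM, where the group medians were 2473 and 1655. The elemental controls held a median of 4780 and up to 6159 RPM (E_C_3417), and the casein controls a median of 2331 and up to 2918. No control library was left out for its erythroid reads. Without E_MR_3423, C_MR_3431 and the libraries with pancreas or muscle genes, 17 of 33 genes fell with elemental MR and 21 with casein MR. There 1 of 33, Ppib, differed between the protein sources. The calls lost there were those of Dnajc3 (adjusted p = 0.0661), Pdia5 (0.0703), P4hb (0.0543) and Sec61a1 (0.16) with elemental MR and of Hyou1 (0.0566), Derl1 (0.28) and Derl3 (0.103) with casein MR.

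**Figure D4:**
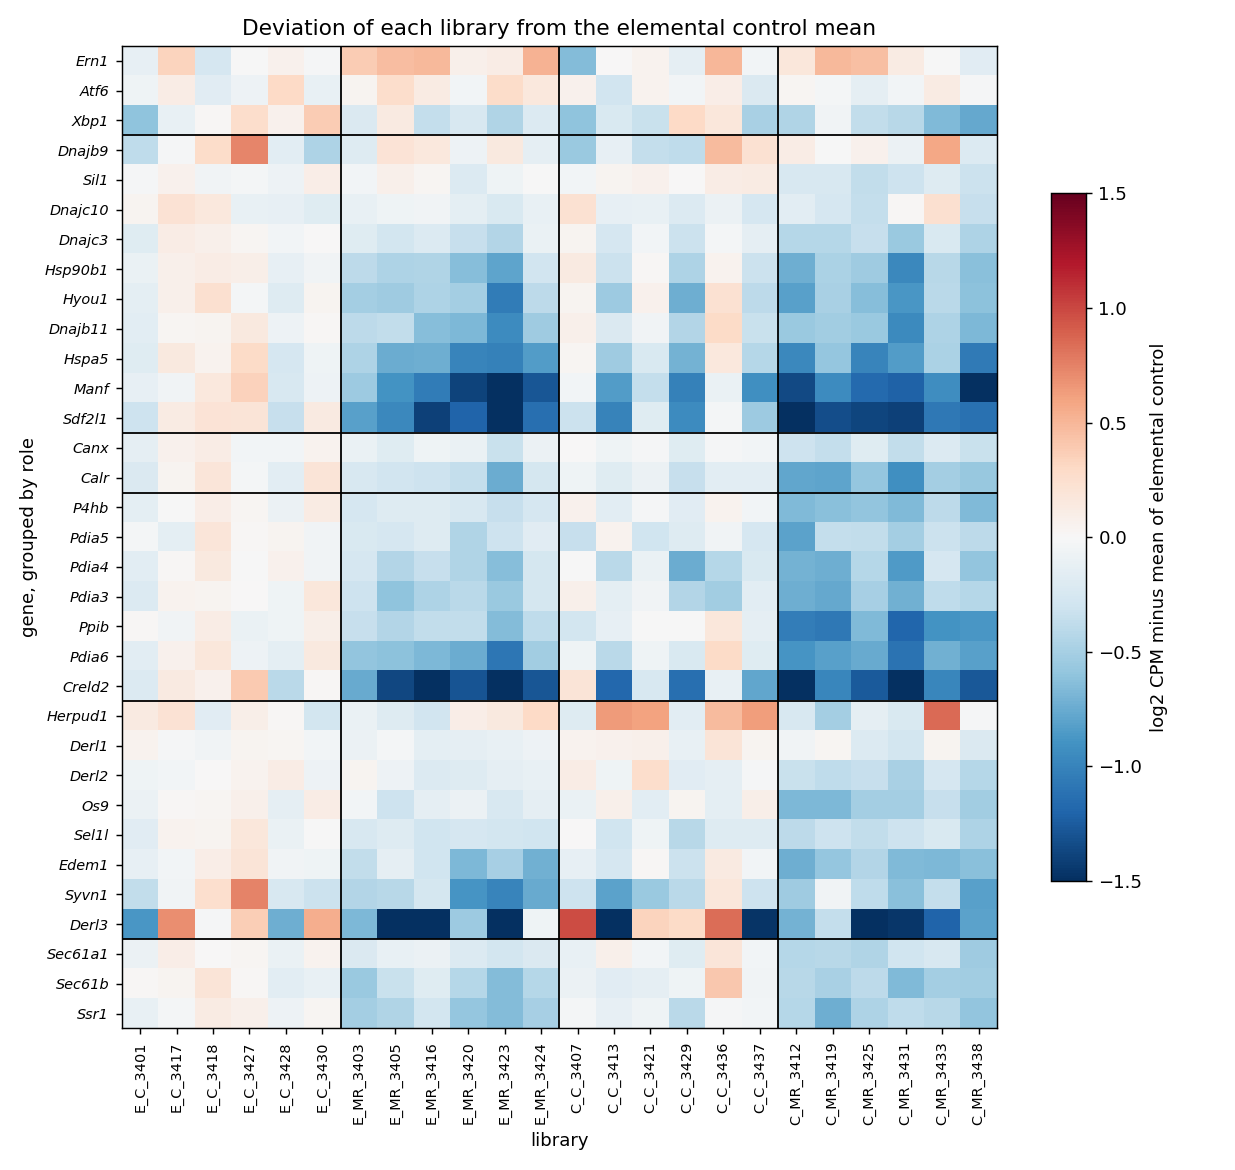
Log2 CPM of each of the 33 genes (rows, by role) in each of 24 libraries (columns, by group) minus its mean in the elemental control group; blue is lower, red higher, and the scale stops at 1.5 in either direction. The MR columns of both sources are mostly blue from Dnajc3 to Ssr1, and elemental MR library E_MR_3423 is the darkest of its group. The row of Ern1 is not blue in the elemental MR columns.

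The 9 genes with an ERSE had a median change of -0.66 with elemental MR and -0.52 with casein MR, and 7 and 8 of them fell. The 18 with a window but no exact ERSE match, among them Dnajb11 and Herpud1 with an ERSE-II, had medians of -0.26 and -0.38. Of these 18, 11 fell in each comparison. Falls without an ERSE match included Sdf2l1 and Ppib, while Canx, which holds one, fell by 0.24 with casein MR. Outside the list, 8 tested genes had an ERSE in their window, with medians of -0.10 and -0.16. Of these, Acacb fell and Acnat2 rose in both comparisons.

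Other genes of the ER were read from 7 lists with no gene of the 33 in them, 117 tested genes in all. With elemental MR 7 of the 117 rose and 37 fell, where 6.78% of all tested genes were called higher and 6.64% lower. With casein MR 9 rose and 39 fell, where 10.6% of all tested genes were called higher and 12.7% lower. Of 12 genes of the PERK branch, 3 rose with elemental MR and 4 with casein MR, 0 fell, and the others were not called. Nupr1, a stress-induced nuclear protein, rose by 1.33 ± 0.28 (adjusted p = 0.00143) with elemental MR and by 1.61 ± 0.30 (adjusted p = 0.000172) with casein MR. Trib3, a pseudokinase, rose by 1.0 ± 0.23 (adjusted p = 0.00351) and by 0.81 ± 0.23 (adjusted p = 0.00957). Sesn2, a leucine sensor, rose by 0.56 ± 0.16 (adjusted p = 0.023) and by 0.64 ± 0.16 (adjusted p = 0.00441). Ppp1r15a (GADD34), which directs the phosphatase of eIF2α, rose by 0.59 ± 0.13 (adjusted p = 0.00138) with casein MR and was at 0.29 ± 0.13 (adjusted p = 0.157) with elemental MR. As background, these genes also answer to amino acid shortage through the kinase GCN2. Atf4, the transcription factor of this branch, was at 0.19 ± 0.09 (adjusted p = 0.194) and 0.16 ± 0.09 (adjusted p = 0.253), Ddit3 (CHOP) at 0.03 ± 0.16 (adjusted p = 0.949) and 0.04 ± 0.16 (adjusted p = 0.893), and Eif2ak3 (PERK) at -0.17 ± 0.19 (adjusted p = 0.654) and -0.04 ± 0.19 (adjusted p = 0.929). Among 9 other ER stress transducers, Creb3l3 (CREBH) alone was called, and fell by 0.34 ± 0.08 (adjusted p = 0.00248) with casein MR.

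Of 18 other thiol oxidoreductases and foldases, 8 fell and 2 rose with elemental MR, and 9 fell and 1 rose with casein MR. Fkbp11, a prolyl isomerase, fell by 1.09 ± 0.12 (adjusted p = 5.07e-07) and by 0.96 ± 0.12 (adjusted p = 8.57e-07). Qsox1, a sulfhydryl oxidase, fell by 0.37 ± 0.09 (adjusted p = 0.00381) and by 0.80 ± 0.09 (adjusted p = 6.16e-08). Prdx4, the peroxiredoxin of the ER, fell by 0.44 ± 0.06 (adjusted p = 1.04e-06) with casein MR. Ero1l, the oxidase that recharges disulfide isomerases, rose by 0.31 ± 0.10 (adjusted p = 0.0432) and by 0.38 ± 0.10 (adjusted p = 0.0075), and Vkorc1 rose by 0.21 ± 0.05 (adjusted p = 0.00286) with elemental MR. In N-glycosylation and glycan quality control 7 of 17 fell with elemental MR and 9 of 17 with casein MR. Among the subunits of the oligosaccharyltransferase, Rpn2 fell by 0.25 ± 0.04 (adjusted p = 0.000321) and by 0.58 ± 0.04 (adjusted p = 2.34e-10), and Ddost fell by 0.37 ± 0.07 (adjusted p = 0.00039) and by 0.59 ± 0.07 (adjusted p = 2.36e-07). Uggt1, the folding sensor that puts glucose back on misfolded glycoproteins, fell by 0.38 ± 0.07 (adjusted p = 0.000206) and by 0.46 ± 0.07 (adjusted p = 5.91e-06). Stt3b, a catalytic subunit of the oligosaccharyltransferase, was the 1 gene of this list that rose, by 0.21 ± 0.06 (adjusted p = 0.0163) and 0.29 ± 0.06 (adjusted p = 0.000507).

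Of 21 other ERAD genes 1 fell and 1 rose with elemental MR, and 1 fell and 3 rose with casein MR, counts below or near the shares of all tested genes, with medians of 0.03 and -0.00. Rnf139, a ubiquitin ligase, rose by 0.39 ± 0.08 (adjusted p = 0.00169) with elemental MR, and Erlec1, a lectin, fell by 0.31 ± 0.09 (adjusted p = 0.0182). With casein MR the segregase Vcp rose by 0.23 ± 0.06 (adjusted p = 0.00405) and its cofactors Nploc4 and Ufd1 by 0.31 ± 0.07 (adjusted p = 0.00204) and 0.16 ± 0.06 (adjusted p = 0.0349), while Selenok fell by 0.21 ± 0.07 (adjusted p = 0.0255). Of 19 genes of targeting, translocation and signal peptidase, 9 fell with elemental MR and 7 with casein MR, with medians of -0.23 and -0.21. Of 21 genes of export and retrieval 12 fell in each comparison, with medians of -0.23 and -0.29, and 0 genes of either list rose. Tram1, a translocon partner, fell by 0.54 ± 0.05 (adjusted p = 9.33e-08) and by 0.67 ± 0.05 (adjusted p = 4.45e-10), Sec63, a translocon DnaJ protein, by 0.30 ± 0.06 (adjusted p = 0.00119) and 0.53 ± 0.06 (adjusted p = 1.95e-07), and Ssr4, a subunit of the complex of Ssr1, by 0.42 ± 0.06 (adjusted p = 1.37e-05) with casein MR. Kdelr1, the receptor that returns escaped chaperones to the ER, fell by 0.21 ± 0.04 (adjusted p = 0.000895) and by 0.37 ± 0.04 (adjusted p = 1.65e-07). Lman1, a cargo lectin, fell by 0.28 ± 0.05 (adjusted p = 0.000537) and by 0.42 ± 0.05 (adjusted p = 1.12e-06), and Sec24a, a coat subunit, by 0.47 ± 0.06 (adjusted p = 2.36e-06) with casein MR.

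**Figure D5:**
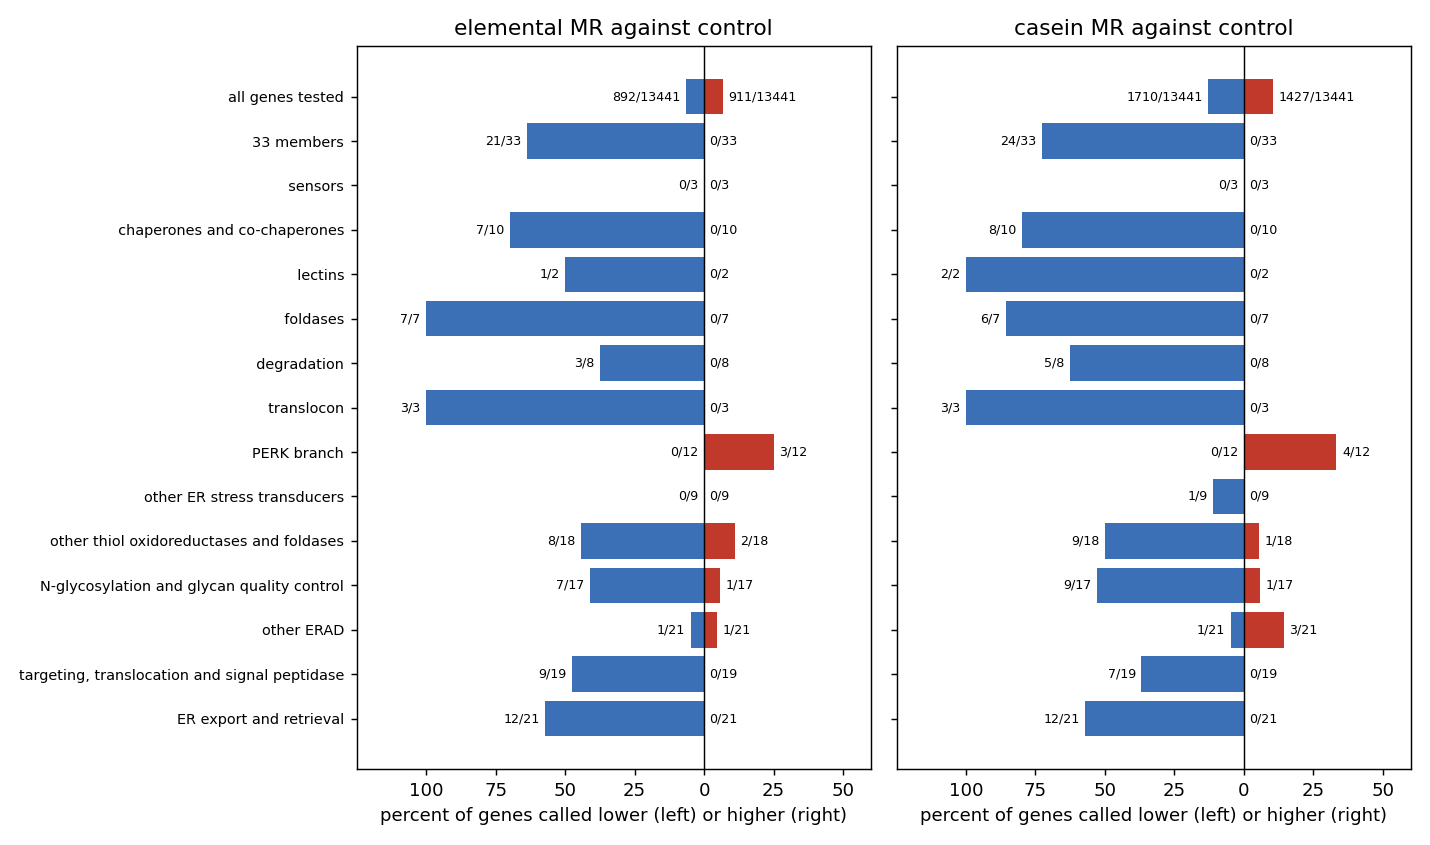
Percent of genes called lower (blue, to the left) and higher (red, to the right) with elemental MR and casein MR, for all tested genes, the 33 genes, their 6 roles and 7 further ER lists; numbers beside the bars are genes called of genes tested. Foldases, translocon and export genes stand far to the left, and the called genes of the PERK branch lie to the right.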

How the data were processed

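RNA from 24 liver samples was measured in 4 diet groups of 6, taken from the sample labels. The authors deposited raw counts, as whole numbers of reads per Ensembl gene and library (13458941 to 20762532 per library), and a normalized signal, which was checked to equal the deposited counts divided by 1 size factor per library. For aligner, counter, build, strand and RNA selection the sources used here give nothing, and reads of overlapping genes cannot be told apart.

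Only the counts were tested, in R 4.3.3 with edgeR 4.0.16: filterByExpr by group left 13441 of 15161 genes, libraries were scaled by TMM, and 5 comparisons were read from a single quasi-likelihood fit of the 4 group means, with Benjamini-Hochberg adjustment over all genes and calls at an adjusted p under 0.05. SE is the log2 fold change divided by the square root of F. CPM are counts per 1000000 of the TMM-scaled library. The script was tested on simulated data. Alternatives were median-of-ratios and upper quartile scaling, other filters, DESeq2 1.42.0 and limma-voom with sample quality weights (limma 3.58.1). Further ones were 1 surrogate variable (sva 3.50.0), the groups compared alone and each library left out. The libraries with pancreas, muscle or most erythroid genes were also left out, a setting chosen after seeing the data.

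The 33 genes and all lists were chosen with earlier results of these data known. Given in full are genes called in both MR comparisons or in their difference and the sensors; of each other ER list up to 3 called genes with the smallest p in either MR comparison are given, with Atf4, Ddit3 and Eif2ak3. Sesn2, Ero1l, Vkorc1, Stt3b, Erlec1, Ufd1, Selenok, Cela1, Acacb and Acnat2 were named after their values were seen. Promoter sequences are RefSeq's (GRCm38.p6), matched by symbol.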

Additional observations from a re-analysis of the deposited data

Results flagged for a closer look

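In 10 of the 132 sets of 6 libraries (33 genes in 4 groups) 1 library stood apart from the other 5 on the log2 CPM scale by Dixon's test; chance flags about 1 in 20 such sets. Elemental MR library E_MR_3423 was low for Calr (509 CPM, others 666 to 727), Ppib (104, others 120 to 128) and Hyou1 (13.3, others 19 to 21), and library E_MR_3403 of that group was high for Creld2 (20.3, others 12 to 14.1). Casein MR library C_MR_3433 was high for Herpud1 (414, others 162 to 228) and P4hb (516, others 426 to 447). Casein control library C_C_3429 was low for Canx (232, others 252 to 264) and Ssr1 (71, others 86.1 to 92.4), library C_C_3436 was high for Sec61b (113, others 75.7 to 82.2) and library C_C_3407 for Dnajc10 (24, others 17.3 to 19.4).

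The MR effects of the protein sources differed, by the test of the difference itself, for Ppib (-0.46), Os9 (-0.35), P4hb (-0.31) and Sil1 (-0.30) on the log2 scale, casein minus elemental.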

How the results depend on the processing

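The number of the 33 genes called lower stayed between 17 and 22 with elemental MR (21 as reported), between 21 and 26 with casein MR (24) and between 5 and 8 between the MR diets (7) under every alternative. Of the called genes, 16 of 21, 20 of 24 and 4 of 7 were called in every one. No called value changed sign. The number higher with elemental MR went from 0 to 1 (Ern1) when only the groups compared were fitted. The number of genes with a difference between the protein sources, 4 as reported, was 2 with upper quartile scaling, 2 with no filter on low counts, 1 without 4 libraries (those with pancreas, muscle or most erythroid genes) and 1 to 4 with each library left out; it was 1 without elemental control E_C_3418 or casein control C_C_3437. All genes called on the control diets, 14 as reported, were 73 with DESeq2, 3 with limma-voom, 7 with only the groups compared, 9 without the 2 libraries with pancreas or muscle genes, 7 without the 4, and 5 to 33 with each library left out, the highest without casein control C_C_3407. Between the MR diets 873 genes became 569 without the 4 libraries. The cause of these shifts was not tested. Scaling moved the median of all genes by less than 0.1 on the log2 scale. Each scaling used aligns the bulk of genes between libraries, so this median could hardly move. No fit scaled by read totals alone was run, so how the calls would stand there was not tested. No paired analysis was possible because the groups share no replicate numbers in the labels. At 0.724 to 5.35 CPM, Derl3 is limited by depth.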
